A study of Homo sapiens with 3 samples.

Results

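The genes of the major histocompatibility complex (MHC) described here are 9 genes of antigen presentation, chosen by symbol from a RefSeq table of assembly GRCh38.p14 with 20033 protein-coding genes on the chromosomes where peaks were called. The class I set has 5 genes: HLA-B, HLA-C, HLA-E, B2M and NLRC5. The class II set has 4: HLA-DRA, HLA-DPA1, HLA-DQA1 and CIITA. All 9 symbols were found. Accessible chromatin was measured by ATAC-seq, in which the Tn5 transposase cuts and tags open DNA, in 1 library (replicate 2) of hCMEC/D3. The line is made of immortalized endothelial cells from small vessels of a human brain, derived as a single clone and so a limited model of the vessels of the brain in general. The cells were cultured to confluence on collagen and used at passages 4 to 6, with no cytokine or other treatment in the labels. There was no second condition, so every value below describes this library, without a replicate and without a test.

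Class I molecules carry peptides made inside the cell to its surface and show them to cytotoxic T cells. They consist of a heavy chain, encoded by HLA-B, HLA-C or HLA-E among others, and the light chain beta-2-microglobulin, encoded by B2M. Class II molecules are pairs of an alpha and a beta chain that show peptides from outside the cell to helper T cells. HLA-DRA, HLA-DPA1 and HLA-DQA1 encode alpha chains. Class I is made by nearly all nucleated cells, whereas class II is constitutive in professional antigen-presenting cells and is induced in endothelium by interferon gamma. The promoters of both classes carry a shared array of elements, the S, X and Y boxes, bound by the RFX complex, CREB family proteins and NF-Y. On that platform NLRC5 acts as the transactivator of class I genes and CIITA as that of class II genes.

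The RefSeq promoter table held 5 of the 9 members: HLA-B, HLA-C, B2M, HLA-DPA1 with 2 starts, and HLA-DQA1. It did not hold HLA-E, NLRC5, HLA-DRA and CIITA. The 250 bases before each annotated start are printed 5′ to 3′ on the strand of the gene, because they show which accessible and which peak-free promoters carry letters of the shared array. Capitals mark the core of the X2 box (TGACG), the Y box (CCAAT) and an interferon response core (GAAA, any 2 bases, GAAA), each searched on both strands, so that CGTCA and ATTGG are also in capitals. HLA-DPB1, the beta chain partner of HLA-DPA1, is added because its start lies within the HLA-DPA1 gene, under a peak.
HLA-B, chr6:31357180-31357429, minus strand: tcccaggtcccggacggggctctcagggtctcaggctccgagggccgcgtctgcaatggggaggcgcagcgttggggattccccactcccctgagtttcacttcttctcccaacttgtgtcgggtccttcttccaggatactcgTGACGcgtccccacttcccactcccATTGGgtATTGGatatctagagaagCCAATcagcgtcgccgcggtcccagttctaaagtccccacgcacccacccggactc
HLA-C, chr6:31272093-31272342, minus strand: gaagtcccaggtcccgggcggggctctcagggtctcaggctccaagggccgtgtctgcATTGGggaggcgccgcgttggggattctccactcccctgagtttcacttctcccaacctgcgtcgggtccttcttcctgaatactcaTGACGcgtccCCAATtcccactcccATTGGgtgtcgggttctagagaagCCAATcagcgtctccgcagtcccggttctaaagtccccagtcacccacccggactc
B2M, chr15:44711267-44711516, plus strand: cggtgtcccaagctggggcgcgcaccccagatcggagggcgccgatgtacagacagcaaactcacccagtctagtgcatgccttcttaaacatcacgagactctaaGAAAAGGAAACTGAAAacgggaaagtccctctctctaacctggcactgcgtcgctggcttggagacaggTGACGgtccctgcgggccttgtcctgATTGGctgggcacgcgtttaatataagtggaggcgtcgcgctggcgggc
HLA-DPA1 first start, chr6:33080749-33080998, minus strand: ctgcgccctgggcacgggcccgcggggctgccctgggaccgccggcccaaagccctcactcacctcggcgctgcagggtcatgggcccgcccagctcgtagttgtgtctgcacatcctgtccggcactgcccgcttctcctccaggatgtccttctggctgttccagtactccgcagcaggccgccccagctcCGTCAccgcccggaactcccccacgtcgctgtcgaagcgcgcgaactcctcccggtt
HLA-DPA1 second start, chr6:33073650-33073899, minus strand: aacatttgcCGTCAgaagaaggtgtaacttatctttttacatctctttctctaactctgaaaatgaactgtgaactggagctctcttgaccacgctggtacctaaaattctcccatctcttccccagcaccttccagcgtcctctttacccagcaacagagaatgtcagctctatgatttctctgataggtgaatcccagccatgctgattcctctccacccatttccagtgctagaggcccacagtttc
HLA-DPB1, chr6:33075740-33075989, plus strand: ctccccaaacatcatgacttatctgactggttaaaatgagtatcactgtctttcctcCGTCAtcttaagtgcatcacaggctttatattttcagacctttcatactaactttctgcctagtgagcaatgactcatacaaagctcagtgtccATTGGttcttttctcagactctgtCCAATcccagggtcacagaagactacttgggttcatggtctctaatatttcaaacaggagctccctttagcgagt
HLA-DQA1, chr6:32637156-32637405, plus strand: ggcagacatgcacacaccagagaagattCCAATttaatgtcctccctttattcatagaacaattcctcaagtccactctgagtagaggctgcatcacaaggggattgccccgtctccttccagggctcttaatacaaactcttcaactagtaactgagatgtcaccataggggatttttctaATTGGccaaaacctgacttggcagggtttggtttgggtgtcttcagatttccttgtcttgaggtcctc

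Peaks covered all 250 bases before the start of HLA-B, of HLA-C, of B2M and of the first start of HLA-DPA1. They covered 219 of 250 before its second start and 234 of 250 before HLA-DPB1. No base before the start of HLA-DQA1 lay in a peak. In the whole RefSeq table, 64.8% of the promoter windows of protein-coding genes (250 bases before to 50 after the start) met a peak.

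The 3 class I promoters each held an X2 core on the strand of the gene with a Y box closer to the start. In HLA-B the X2 core began 106 bases before the start. Y box matches began 81 and 74 bases before the start on the opposite strand and 56 on the strand of the gene. In HLA-C the X2 core began at 105, with Y box matches closer to the start at 95, 80 and 56, the middle one on the opposite strand. In B2M the X2 core began at 75 and the only Y box match at 49, on the opposite strand. Which match acts as the Y box was not tested. TGACG was found on either strand in 21.2% of the 35116 promoters of this length and CCAAT in 32%, and 7.26% held both. HLA-DPB1 also held both, with the TGACG match on the opposite strand, 193 bases before the start, and Y box matches at 99 and 75. The first and second HLA-DPA1 starts had a TGACG match on the opposite strand, 57 and 241 bases before them, and no Y box match. The bases before the first start lie within the HLA-DPB1 gene, so that match is also part of HLA-DPB1 sequence. HLA-DQA1 had 2 Y box matches and no TGACG match. Among the printed promoters only B2M matched the exact interferon response pattern, in 2 overlapping copies that began 144 and 138 bases before the start. Of all promoters, 3.02% matched it, and other forms of such an element were not searched. An NF-kappaB core (GGG, any 5 bases, CC; both strands, overlaps allowed) was present in every printed promoter except that of HLA-DPB1, but also in 54.4% of all promoters, and a TATA box (TATAAA, both strands) was present in HLA-DPB1 alone of those printed and in 10.7% of all. A match describes letters only and does not show that a factor was bound. Only exact letters were searched, so the lack of a match does not show that an X box, Y box or interferon element is absent.

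All 5 class I genes had a peak at a gene end, and 2 of the 4 class II genes did. A peak counts as an end peak when it reaches within 1 kb of either end of a gene, and as inside or flank otherwise, up to 10 kb away. The background was 72.8% of all protein-coding genes with an end peak (95% Wilson interval 72.2% to 73.4%), and 65.1% of those of up to 20 kb. Any peak in the gene or its flanks was found for all 5 class I genes and for 2 of 4 class II genes, beside 89.8% of all protein-coding genes and 83% of those of up to 20 kb. HLA-DRA and HLA-DQA1 had none. With most genes having such peaks, 5 of 5 is no result about class I genes, and no test was made on 5 and 4 genes. In this bulk library, a site open in few cells and a site partly open in many cannot be told apart.

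**Figure D1:**
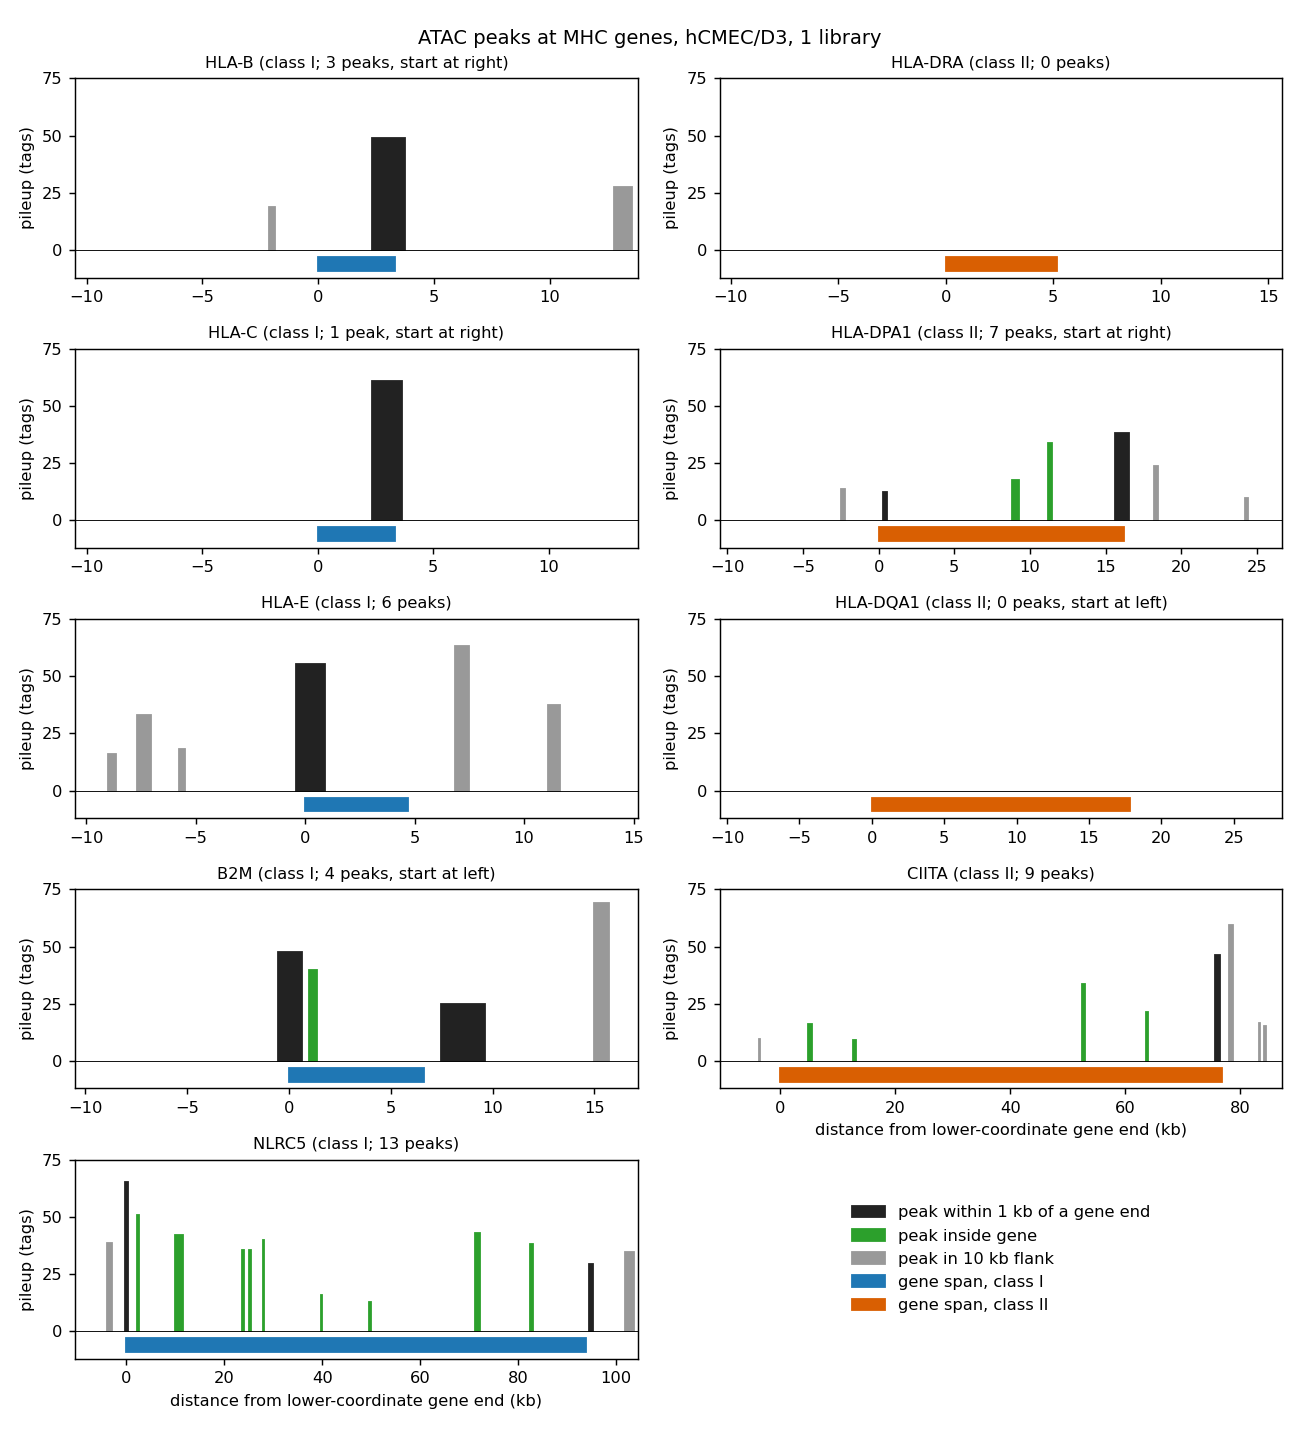
Each panel shows 1 gene, with the distance from its lower-coordinate end in kb on the horizontal axis and the pileup of each peak in tags as the bar height; the bar below 0 is the gene span. Class I genes are on the left with 1 to 13 peaks each, and the windows of HLA-DRA and HLA-DQA1 on the right are empty.

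HLA-B and HLA-C, classical heavy chain genes that present peptides to T cells, each had a single end peak, at their start. That of HLA-B ran from 31356193 to 31357624 on chromosome 6, was 1432 bp long and had a pileup of 48.95 tags. Pileup is the depth of overlapping extended tags that the authors' peak caller reports for the peak. In a broad peak list it is a mean over the whole peak, not the height at a summit. A high peak below means one with a high mean. That of HLA-C ran from 31271094 to 31272397, was 1304 bp long and had a pileup of 60.74 tags. Their lengths stood at the 96.2nd and 94.4th percentiles of the 106415 peaks of the library. Both peaks were lopsided: the HLA-B peak reached 445 bases before and 986 bases after the start, and the HLA-C peak 305 before and 998 after, so most of each lay over the first part of the gene. The 250 bases before the starts were 89% identical between the genes in a global alignment. Reads that match both genes could have been placed at either, and how such reads were handled is not given in the sources used here.

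The surroundings of these genes differed. HLA-B had a weak flank peak of 18.8 tags 1882 bp beyond its other end and a flank peak of 27.44 tags over the pseudogene DHFRP2. HLA-C had no other peak within 10 kb. Its nearest neighbouring peaks lay 22193 and 21327 bp away.

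HLA-E encodes a non-classical heavy chain that presents leader peptides of other class I chains to natural killer cells. It had 6 peaks, or 2.43 per 10 kb of window. The upper quartile was 1.36 in protein-coding genes of up to 20 kb, and HLA-E exceeded the density of 99.0% of protein-coding genes of all lengths. The peak at its lower-coordinate end, from 30489073 to 30490433 on chromosome 6, had a length of 1361 bp and a pileup of 55.53 tags, close to the end peaks of HLA-B and HLA-C. HLA-E is known to be transcribed from lower to higher coordinates, although the tables used here give no strand for it. The highest of its peaks was not that one but a flank peak of 63.37 tags, from 30496340 to 30497011, which lay 2145 bp beyond the other end and overlapped no gene of the table. The remaining 4 peaks were flank peaks of 15.87 to 37.43 tags.

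B2M lies on chromosome 15, outside the MHC. The peak over its start, from 44711002 to 44712176, was 1175 bp long with 47.67 tags. The same peak covered 2 annotated starts of PATL2, a gene of the other strand that ends 126 bp from B2M, so the signal is shared by a pair of divergent genes. A further peak of 39.84 tags began 1003 bp into B2M, just outside the limit of 1 kb, and counted as inside the gene. Beyond the other end lay the longest peak of the set, 2169 bp at 24.82 tags, whose near edge was 843 bp from the gene. A flank peak from 44726521 to 44727227 had 68.84 tags, the highest pileup among the 43 peaks of the 9 genes.

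NLRC5 on chromosome 16 had 13 peaks over a window of 113964 bp, of which 10 overlapped the gene. The highest, 65.13 tags from 56989309 to 56989940, lay over the lower-coordinate end, which is known to be the start of NLRC5. It also overlapped the end of the long noncoding RNA LOC124903696. Inside the gene 9 peaks ran from 12.77 to 50.81 tags. The second highest of all 13, with 50.81 tags, stood close to the start, at 56991754 to 56992193. The longest inside peak had 1572 bp, from 56999552 to 57001123, and the peak of highest fold (7.49) lay near the far end, from 57072015 to 57072644. A flank peak of 34.6 tags covered the start of the neighbour CPNE2.

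The class II alpha chain genes were not alike. HLA-DRA, whose product pairs with every DR beta chain, had no peak in the gene or within 10 kb. The nearest peaks lay 23232 bp below and 28483 bp above it. This peak-free stretch of 56875 bp exceeded 92.0% of the gaps between neighbouring peaks of the library, and 8553 of 106391 gaps were longer. A long gap is more likely to hold a gene than a short one, so such shares do not measure how unusual a stretch around a gene is. Of 9020 protein-coding genes of up to 20 kb, 1529 had no peak in the window. HLA-DQA1 also had no peak in its window. The stretch around it measured 43603 bp, longer than 88.6% of the gaps, and its nearest peak, 11122 bp above the gene and so just outside the window, was the one at the start of HLA-DQB1. Of the beta chain genes in the same subregion, HLA-DRB1, HLA-DQB1 and HLA-DRB5 had end peaks of 19.56, 18.0 and 9.74 tags, and HLA-DQB2 had none. The lowest pileup of any peak in the library was 8 tags, and a site below the caller's threshold was not detectable at this depth. The promoters of HLA-DQA1 and of its near copy HLA-DQA2, which had no peak either, were 83% identical. How reads that match both were handled is not given in the sources used here. Whether read placement contributed to the empty windows was not tested.

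HLA-DPA1 had 7 peaks, or 1.93 per 10 kb of window. The upper quartile was 1.36 in protein-coding genes of up to 20 kb, and HLA-DPA1 exceeded the density of 96.2% of protein-coding genes of all lengths. Class I peaks ran from 12.77 to 68.84 tags and from 233 to 2169 bp, with medians of 38.14 tags and 641 bp. Those of HLA-DPA1 overlapped this range, at 9.84 to 38.29 tags and 200 to 889 bp, with lower medians of 17.65 tags and 275 bp. The highest and longest, from 33080211 to 33081099 on chromosome 6, lay over the first annotated start printed above and within HLA-DPB1. The peak over the second start, from 33073378 to 33073868, had 17.65 tags. Between them a peak of 33.6 tags, from 33075756 to 33076045, covered the start of HLA-DPB1 and the TGACG and CCAAT matches before it. The 2 genes are on opposite strands and overlap, and 4 of the 7 peaks overlapped HLA-DPB1 as well. At the other end of HLA-DPA1 the peak had 12.31 tags.

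CIITA, the transactivator of class II genes, had 9 peaks, but its only end peak and its highest peak lay over the starts of other genes. The end peak, from 10941749 to 10942704 on chromosome 16, had 46.47 tags and covered the annotated start of DEXI, 552 bp inside the upper end of CIITA and on the minus strand. The flank peak from 10944209 to 10944888 had 59.55 tags and covered the start of CLEC16A. No peak lay within 1 kb of the lower-coordinate end, which is known to be the 5′ end of the longest CIITA transcripts. CIITA is known to have several alternative promoters in the first part of the gene, and the tables used here do not place them. In the first 13152 bp of the gene there were 2 weak peaks. That from 10871058 to 10871685 had 16.06 tags, and that from 10878778 to 10879358 had 8.99 tags, at the 1.69th percentile of pileup in the library. Further in, a peak of 365 bp from 10918747 to 10919111 had 33.74 tags and the highest fold of all 43 peaks, 8.75. Fold is the authors' ratio of pileup to local background, with 1 tag added to each. NLRC5, by contrast, had its highest peak at its own start.

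**Figure D2:**
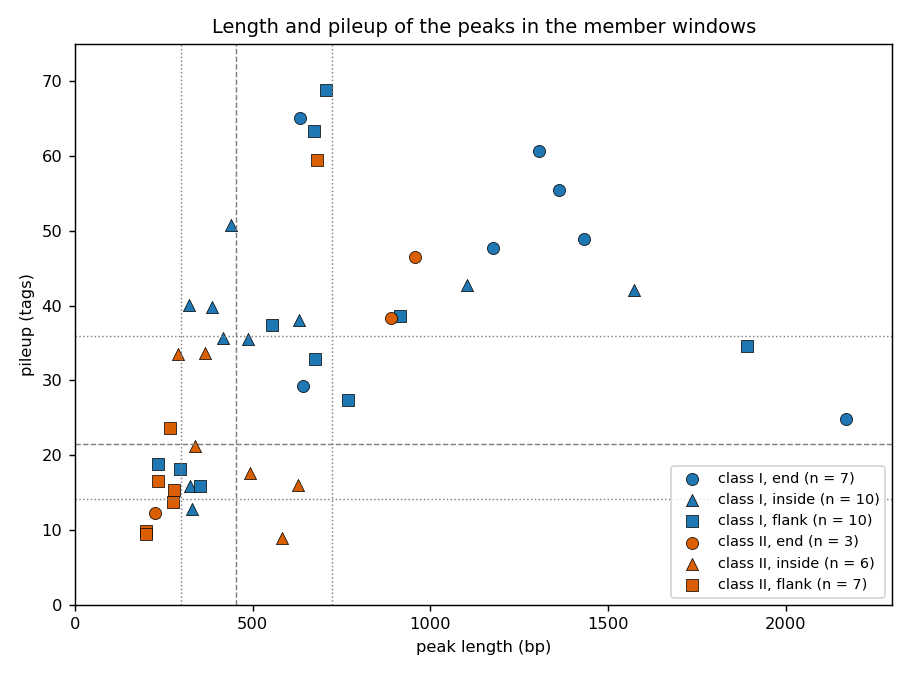
Each point is 1 peak in the window of a member gene, with its length in bp and its pileup in tags; colour gives the class, the symbol the position, and the grey lines are the quartiles of all peaks in the library. Class I end peaks reach 2169 bp and 65.13 tags, and 10 of the 16 class II peaks lie at or below the median pileup of 21.57 tags.

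Set side by side, class I windows held 27 peaks and class II windows 16. Per gene the counts ran from 1 to 13 with a median of 4 in class I, and from 0 to 9 with a median of 3.5 in class II, and the median protein-coding gene had 3. Per 10 kb of window, the medians were 1.29 and 0.46, beside 0.66 for all protein-coding genes and 0.87 for those of up to 20 kb. All members except NLRC5 and CIITA are of up to 20 kb, and the upper quartile of such genes was 1.36. The ranges overlapped widely, from 0.43 at HLA-C to 2.43 at HLA-E and from 0 at HLA-DRA and HLA-DQA1 to 1.93 at HLA-DPA1.

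By position, class I peaks comprised 7 at ends, 10 inside and 10 in flanks. Class II peaks comprised 3, 6 and 7. The median pileup was 38.1 tags in class I and 17.1 in class II, and 22 of 27 class I peaks but 6 of 16 class II peaks were above the library's median of 21.57 tags. At gene ends the class I peaks ran from 24.82 to 65.13 tags and the class II peaks from 12.31 to 46.47. Median lengths were 641 and 314 bp, beside 452 bp for all peaks. Without the transactivators NLRC5 and CIITA the median pileups were 38.6 and 17.65 tags and the median lengths 690.5 and 275 bp.

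The fold did not follow the pileup. Its median was 4.29 in class I and 4.20 in class II, close to the 4.49 of all peaks. The local background comes from up to 10000 bp around each peak in the same library. It includes the peak's own tags, so background and fold are not independent of the pileup. This background was higher at class I genes, with a median of 7.09 tags compared with 2.93 at class II genes. It stood at the lowest value the caller allows, 2.37 tags, for 7 of 16 class II peaks (43.75%) and for 0 of 27 class I peaks. Over all peaks the median was 3.32 tags and 34.7% stood at that value, so the class II peaks were near the library as a whole. That floor was set with the genome size in the header, which is the caller's mouse preset. The fold of peaks at the floor, 7 of 16 in class II and 0 of 27 in class I, depends on this setting. How far another genome size would change the fold and the list was not tested. With a −log10 q of at least 5, which 66.7% of protein-coding genes met at an end, 5 class I and 2 class II genes kept an end peak. With a fold of at least 4, met by 56% of protein-coding genes, CIITA lost its end peak and 1 class II gene was left, compared with 5 class I genes. The start peak of NLRC5, with a fold of 3.93, was lost too, and NLRC5 counted through the peak of 29.29 tags at its far end.

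**Figure D3:**
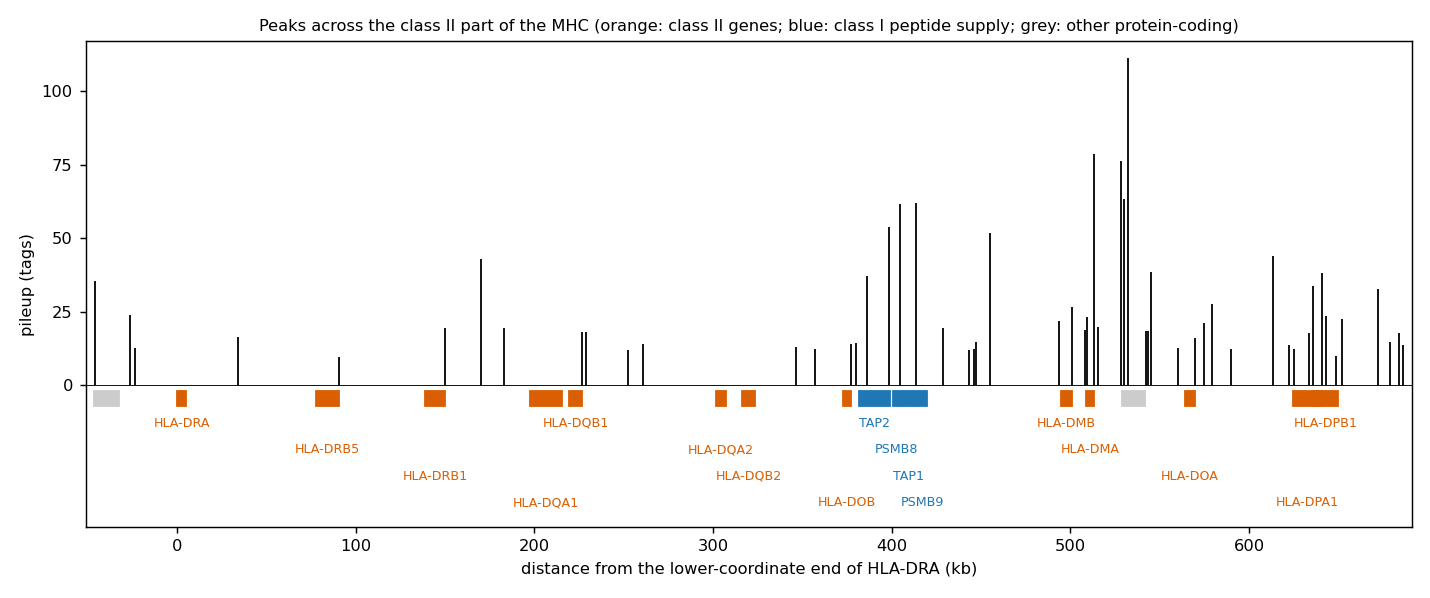
Peaks across the class II part of the MHC are drawn as lines at their distance in kb from the lower-coordinate end of HLA-DRA, with height in tags; bars below are protein-coding genes of the table. From HLA-DRA to HLA-DQB2 there are 9 peaks (highest 42.82 tags) and from HLA-DOB to HLA-DPB1 there are 36 (highest 111.24 tags, within BRD2, drawn in grey).

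The class II genes lie in a part of chromosome 6 where peaks were unevenly spread. From HLA-DRA to HLA-DQB2, a stretch of 324 kb, there were 9 peaks, or 2.78 per 100 kb. From HLA-DOB to HLA-DPB1, 277 kb, there were 36, or 13.0 per 100 kb. The whole list had 3.53 per 100 kb between the first and last peak of each chromosome, so the first stretch was near that value and the second was above it. These stretches were delimited after the values were seen. The highest peak of the second, 111.24 tags, lay within BRD2, which is not a gene of antigen presentation. The second holds genes that serve class I: TAP1 and TAP2, which encode the peptide transporter, and PSMB8 and PSMB9, which encode immunoproteasome subunits. A single peak of 1879 bp and 61.82 tags covered a start of TAP1 and the start of PSMB9, which are on opposite strands. The end peaks of TAP2 and PSMB8 had 53.76 and 61.65 tags. Of the class II genes beside them, HLA-DOB had an end peak of 13.9 tags, HLA-DMB of 26.69 and HLA-DMA of 78.59.

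Other genes of the pathway were counted in lists, beside the 72.8% of all protein-coding genes with an end peak. Of 7 class I chain genes, 6 had an end peak, with HLA-C the highest. HLA-G, whose protein is known mainly from the placenta, had none. All 11 genes of class I peptide supply and loading had one, at 20.97 to 93.65 tags, the highest at ERAP1, an aminopeptidase that trims peptides. That peak also lay at an end of LNPEP. TAP1 and PSMB9 were counted through the same peak, and some other peaks of this list also lay at ends of neighbouring genes. Of 13 class II chain genes, 9 had an end peak (69.2%), a share near that background. HLA-DRA, HLA-DQA1, HLA-DQA2 and HLA-DQB2 did not. The median of the 9 was 19.56 tags, beside 51.5 for class I chains, 61.8 for class I peptide supply and 45.7 for all protein-coding genes with an end peak. The highest of the 9 belonged to HLA-DMA, part of the peptide exchange factor HLA-DM, which works inside the cell.

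All 4 genes of the invariant chain and class II peptide supply had an end peak, with a median of 26.8 tags, again beside 72.8% of all protein-coding genes. CD74, which encodes the invariant chain, had 18.38 tags, and LGMN, a lysosomal protease, had the highest value, 43.05. The 8 genes of factors that bind the X and Y boxes all had one, from 38.3 to 91.4 tags, the highest at NFYA, a subunit of NF-Y. Of 6 genes of interferon gamma signalling, 5 did, with JAK2 highest at 91.45 tags. IFNGR2, a receptor subunit, had 8 peaks in its window but none at an end.

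**Figure D4:**
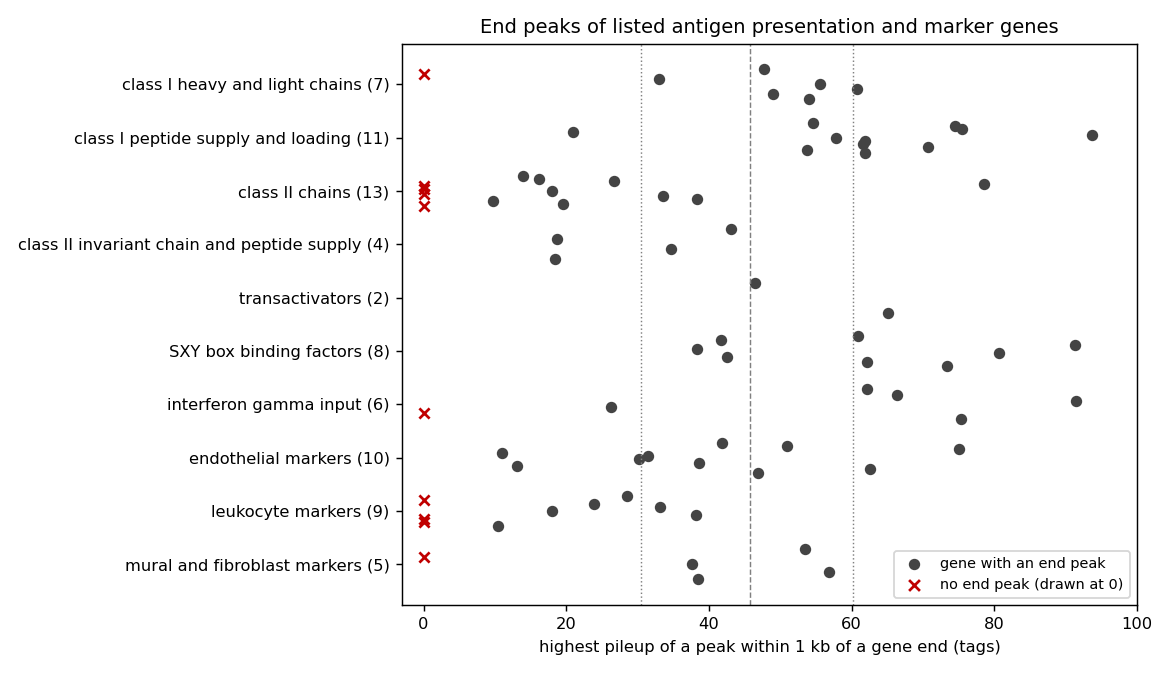
Each point is the highest pileup, in tags, of a peak within 1 kb of an end of 1 listed gene; crosses at 0 are genes without such a peak, and the grey lines are the quartiles over all protein-coding genes with one. Of the class II chains, 4 of 13 have no end peak and 6 of the 9 others lie below 30 tags, while 10 of 11 genes of class I peptide supply lie above 50.

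The labelled cell type was checked by marker genes. All 10 endothelial markers, among them PECAM1, CDH5 and VWF, had an end peak, at 10.98 to 75.02 tags with a median of 40.2. Of 9 leukocyte markers, 6 did, at 10.4 to 38.17 tags with a median of 26.2. The 6 were SPI1 (38.17 tags), CD14 (33.09), CD3E (28.46), ITGAX (23.93), CSF1R (17.99) and PTPRC (10.4), so myeloid genes were among them. The B cell genes MS4A1 and CD79A and the myeloid gene LYZ had none, and MS4A1 had no peak in its window. Of 5 mural and fibroblast markers, 4 had one, at 37.63 to 56.84 tags with a median of 46.0, and DES did not. The background was the same 72.8% of protein-coding genes, which the leukocyte (66.7%) and mural (80%) shares were near, so end peaks separate these cell types little. Whether signal from other cells contributes to the class II peaks was not tested.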

How the data were processed

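The ATAC library of hCMEC/D3 was deposited as a broad peak list, called by the authors from this library alone with MACS 2.2.7.1 in single-end mode, per the file headers. Tags were extended to 200 bp after a shift of -100 bp. Of 31532245 tags, 22188172 remained at 1 per position. The list gives for each peak the pileup signal, the fold enrichment ratio and −log10 of p and q, all the authors' values as deposited. Strong regions had q of 0.05 and broad regions 0.1. GRCh38 is the human build named in the submitters' processing notes, which also name mm10, Bowtie2 and MACS2 without roles, so the match to the RefSeq table was checked. On chromosomes 6, 15 and 16, peaks met 67.3%, 67.6% and 73.8% of the promoter windows of protein-coding genes, and at offsets of 2 to 50 kb at most 12.4%. The local background was computed as (pileup + 1)/fold − 1 from values averaged over each peak, so it is approximate.

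Peaks were placed on genes with an overlap of at least 1 bp (Python 3.11.15, pandas 2.3.3), after a test on simulated peaks. Promoters were aligned with Biopython 1.88 (match 1, mismatch -1, gap opening -2, extension -0.5). No test was made because there was 1 library, and the number of its tags limits which peaks can be seen. Peaks are not replicates. The 2 RNA libraries were not used, since their transcript identifiers are not paired with genes in the tables used here. The members and the gene lists were chosen with earlier results of these data known. All 9 members are described. Of the antigen presentation lists, genes without an end peak and the highest of each list are named, and HLA-DRB1, HLA-DRB5, HLA-DQB1, BRD2, TAP1, TAP2, PSMB8, PSMB9, HLA-DOB, HLA-DMB and CD74 were named after their values were seen, as were some markers. A listed marker is not reported here.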

Additional observations from a re-analysis of the deposited data

How the results depend on the processing

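Of 29 alternative values, 19 lay within 1.5-fold of the value reported and 10 did not. The 27 class I peaks became 16 with a fold of at least 4, 42 with flanks of 25 kb and 15 without flanks. The 16 class II peaks became 9, 26 and 9 under the same settings, and class I had more peaks in each. These totals cover 5 class I and 4 class II genes and are not scaled to window size, and NLRC5 alone held 13 of the 27. Per 10 kb of pooled windows, the main values were 1.27 in class I and 0.82 in class II. The 5 class I genes with an end peak became 3 of the 3 in the promoter table when only annotated starts counted, and the 2 class II genes became 1 of the 2 in that table. Of all promoter windows of protein-coding genes, 64.8% met a peak. The class II count was also 1 with a fold of at least 4. It was 1 when end peaks that also lie at an end of another protein-coding gene were left out, an alternative chosen after seeing the data, while class I stayed at 5. B2M then lost its start peak and counted through the peak of 24.82 tags beyond its far end. These alternatives remove or add peaks or genes by construction. The share of genes with an end peak was 50 percentage points higher in class I, and 66.7 without NLRC5 and CIITA. Both differences came from HLA-DRA and HLA-DQA1 alone. With 72.8% of all protein-coding genes having an end peak, they are no result about the classes. No paired analysis was possible because no test was made on the 1 ATAC library. A depth of 22188172 tags in 1 library limits what an absent peak means.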
